A study of Phyllotreta striolata with 15 samples.

Results

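Eggs and female adults of the striped flea beetle, Phyllotreta striolata, were compared through the RNA of whole bodies. The comparison uses 6 of the 15 libraries of a life-cycle series, 3 of eggs and 3 of female adults, chosen by their titles. The remaining 9 libraries come from larvae, pupae and male adults, 3 each, and their levels played no part in the limits that sort egg from female transcripts. They do enter the filter, the scaling and the spread of the main test, which was fitted to all 15 libraries. The purpose of the series was to pick out genes typical of one stage or sex. All groups are untreated whole bodies as far as the labels say. The labels do not state the age of the eggs, or the age, mating state and egg load of the females. Nor do they say that replicates were collected separately, so a p-value here reflects variation among the libraries sequenced, some of which may be technical.

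Phyllotreta adults chew the leaves of crucifers and their larvae feed on the roots in the soil, while the egg does not feed. An insect egg starts out with RNA that the ovary loaded into the oocyte, and the embryo later transcribes its own genes and replaces much of that supply. A whole female holds ovaries and developing oocytes as well as gut, fat body, muscle and nervous system.

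The table gives read counts for 11862 genes by identifier and leaves them without gene names, and no annotation was at hand. Lists of eggshell, germline, digestive, detoxification and other genes drawn up by name could not be matched, so transcripts are described by level and by where else they occur. Single identifiers may also share reads with a near-identical copy that cannot be recognised. Egg libraries held 23135342 to 26690102 counts and female libraries 19371626 to 21399593. Levels are given as CPM, counts scaled to a common library size, on sizes scaled by TMM (edgeR's correction for composition), and the limits that set whether a gene is present or lacking were applied to CPM on plain library totals. The labels were checked against the authors' own lists of stage-specific genes, which were chosen on these same libraries and so are no independent check. Eggs had the higher level, by a call, for 154 of the 156 egg-list genes tested, and females for 65 of the 86 female-list genes tested.

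Across genes, Spearman's rho between egg libraries was 0.938 to 0.966, between female libraries 0.960 to 0.980, and between an egg and a female library 0.719 to 0.776. Over 7703 genes present in all 6 libraries, the SD of log2 CPM between replicates had a median of 0.353 in eggs and 0.266 in females. The column names of egg libraries carry another prefix than those of female libraries, so that whatever the prefix stands for cannot be told apart from eggs and females. Male and larval columns share the female prefix, and pupal columns carry a different one from all of these. The same limit thus holds for males or larvae against pupae.

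Nearly all genes used by eggs were also found in females, while the reverse held less far. A gene was counted as present when every library of a group reached 1 CPM. By that limit eggs held 7996 genes and females 9375, and 7703 were present in both. These shared genes were 96.3% of the egg genes and 82.2% of the female genes. The number of shared genes ran from 7721 to 7891 when any of the 6 libraries was left out.

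The asymmetry was widest at the low end. Of the genes present in eggs, 34 (0.425%) averaged under 0.1 CPM in females and 166 (2.08%) averaged 0.1 to 1 CPM. Of the genes present in females, 268 (2.86%) averaged under 0.1 CPM in eggs and 758 (8.09%) averaged 0.1 to 1 CPM. Each egg library held more counts in total than each female library, and the part of depth in this asymmetry was not tested. At the top, 2123 egg genes lay at 100 CPM or more in females and 2262 female genes did so in eggs.

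**Figure D1:**
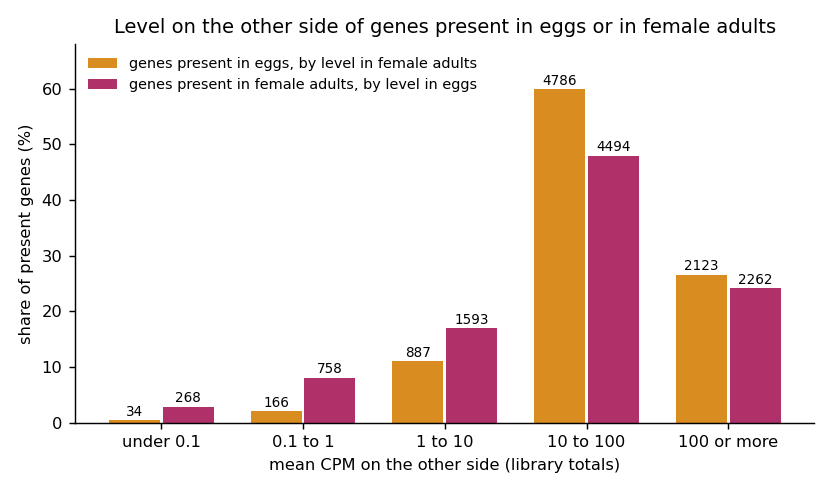
Genes present in eggs (orange, 7996 genes) sorted by their mean CPM in female adults, and genes present in female adults (purple, 9375 genes) sorted by their mean CPM in eggs. Bars give the share of genes in percent and the numbers above them count genes. In the classes below 10 CPM the purple bars are the taller ones, with 268 against 34 genes under 0.1 CPM.

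Differences of at least 2-fold were more numerous and larger towards females than towards eggs. Of 11440 genes tested with edgeR's quasi-likelihood test, 2025 were called higher in eggs (17.7% of genes tested) and 2560 higher in females (22.4%), at a Benjamini-Hochberg adjusted p under 0.05 and a difference of at least 2-fold. Genes higher in eggs differed by a median log2 of 1.73, and genes higher in females by a median log2 of -3.43 (eggs minus females, both from group mean levels, with a side at 0 counts set to a bound of 3 counts over its libraries). Differences of at least 8-fold numbered 392 towards eggs and 1475 towards females. With no minimum fold the numbers at the same adjusted p lay closer together, 2852 higher in eggs and 2936 higher in females. The called genes without overlap of library values were 1912 of those higher in eggs and 2474 of those higher in females. Among all 11440 genes tested, 3246 had every egg library above every female library, and 3379 the reverse. The genes higher in eggs were mostly also used by females: 85.7% to 87.3% of them reached 1 CPM in each female library, at library medians of 21.6 to 25.8 CPM, against medians of 74.5 to 91.8 CPM in eggs. Of the genes higher in females, 48.9% to 59.3% reached 1 CPM in each egg library, at medians of 0.844 to 1.64 CPM, against 27.1 to 30.0 CPM in females.

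These called genes made up much of the RNA counted on each side. The genes higher in eggs took 45.7%, 43.9% and 49.1% of the counts of egg replicates 1 to 3 and 14.4% to 16.3% of female counts. The genes higher in females took 34.9%, 33.4% and 37.7% of the counts of female replicates 1 to 3 and 3.10% to 4.59% of egg counts. In a bulk library, fewer cells that use a gene and less RNA of it per cell cannot be told apart. Scaling moved the median log2 of all genes tested from 0.03 under TMM to -0.08 with library size alone, and 44.2% of calls were higher in eggs under TMM against 37.5% with library size alone.

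**Figure D2:**
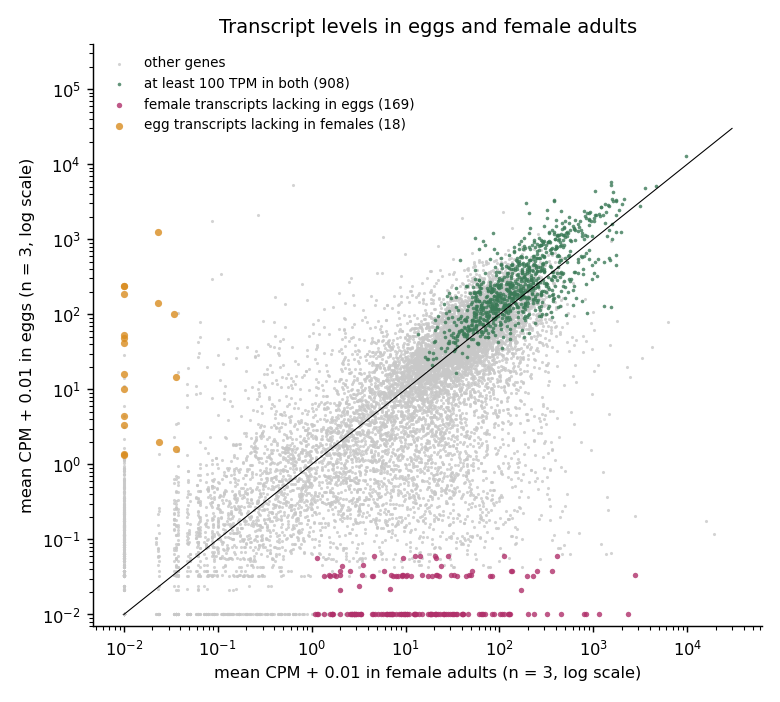
Mean CPM in eggs against mean CPM in female adults for every gene, each plus 0.01 and on log axes, with the line of equal levels. The 18 egg transcripts lacking in females (orange) sit along the left edge and the 169 female transcripts lacking in eggs (purple) along the bottom, while the 908 transcripts abundant in both (green) follow the line.

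Few egg transcripts were absent from females. A gene was counted as an egg transcript lacking in females when each egg library reached 1 CPM and each female library stayed under 0.1 CPM, which is about 2 reads at these depths. The rule uses both sides, so the difference between eggs and females is a description here. It chose 18 genes, 0.152% of the table, of which 12 were at no count throughout the female libraries. All 18 passed the filter on low counts, and 17 were called higher in eggs, beside 17.7% of all genes tested, a count that the rule itself brings about. Their mean egg levels ran from 1.34 to 1266 CPM with a median of 28.7, and 6 reached 100 CPM. Together they took 0.312%, 0.144% and 0.321% of the counts of egg replicates 1, 2 and 3. At the limits of the rule, the nearest genes inside and outside had 0.0992 and 0.103 CPM as their highest female value, and 1.08 and 0.900 CPM as their lowest egg value.

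CAG9857221.1 had the highest egg level among the members with no female count. Its levels were 377, 80.9 and 264 CPM in egg replicates 1, 2 and 3, and 0 in each female library. Egg replicate 2 was the low one, and the groups did not overlap. Its mean of 240.4 ± 149 CPM (SD, n = 3) was at least 6205-fold higher than in females, taking 3 counts over the female libraries as the floor, which allows for counting error alone (edgeR, adjusted p = 0.00014). Outside eggs it did not pass 0.271 CPM in any library. The p-values of this and the next transcript come from the libraries that chose them and lend no separate support.

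CAG9863696.1 stood at 259, 144 and 317 CPM in egg replicates 1, 2 and 3 and at no count in females. Its mean of 239.9 ± 88.0 CPM (SD, n = 3) was at least 6194-fold higher than in females (edgeR, adjusted p = 8.07e-05). Pupae held traces of it, with 1.36, 0.232 and 0.760 CPM, larvae at most 0.263 CPM, and males no count. Both transcripts are on the authors' egg list. The most abundant member of the class had 1 female count over the 3 libraries and lay at 1582, 639 and 1578 CPM in egg replicates 1, 2 and 3, so that egg replicate 2 was again the lowest.

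**Figure D3:**
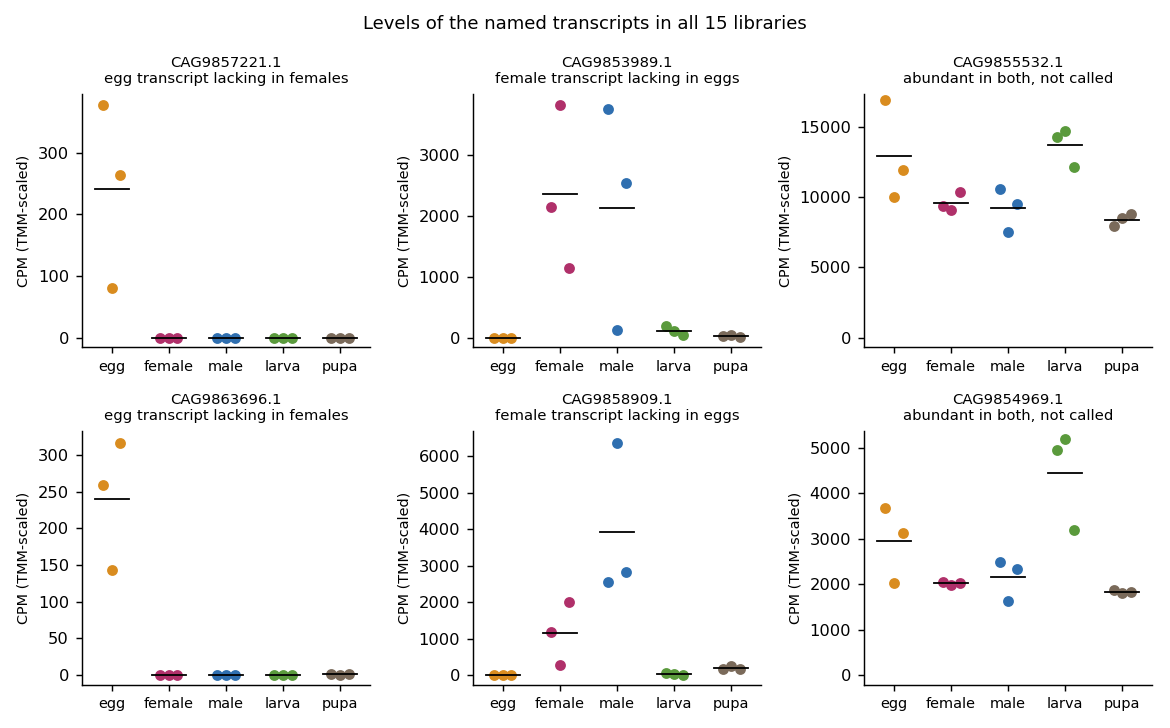
CPM (TMM-scaled) of 6 transcripts in all 15 libraries, with libraries as points and group means of 3 as bars. The left pair is seen in eggs and near 0 elsewhere, the middle pair is at 0 in eggs and high in female and most male libraries, and the right pair is high in all groups.

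Egg replicate 2 held less of this class than the other egg libraries. It was the lowest egg library for 15 of the 18 genes, for 57.5% of the 2025 genes called higher in eggs and for 39.7% of all genes tested. The ratio of the highest to the lowest egg library had a median of 2.53 over the 18 genes. What sets egg replicate 2 apart was not tested. Without it, 2354 genes were called higher in eggs and 2720 higher in females, and 21 genes met the rule for egg transcripts lacking in females. Fewer libraries make the rule easier to meet, and without female adult replicate 3 it chose 30.

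The occurrence of the 18 genes in larvae, pupae and males was not used by the rule. In these 9 libraries, 10 of the 18 stayed under 1 CPM on plain library totals throughout, and 3 of the 10 had no count at all. No member reached 1 CPM in every larval library, 3 did so in every male library and 4 in every pupal library. Per library, 22.2% to 33.3% of the class reached 1 CPM in pupae and 16.7% to 22.2% in males, where 86.0% to 86.8% and 88.5% to 89.5% of all genes in the table did. In the comparison of male adults with pupae, 5 of the 18 were called higher in pupae (27.8%, beside 17.2% of all genes tested, edgeR), and 4 were without male adult replicate 2 (beside 17.1%). None was called higher in males by edgeR (beside 18.4%), with 3 at an unadjusted p under 0.05. DESeq2 called 2 higher in males, with no share of all genes counted, and edgeR without larva replicate 1 called 3 (beside 20.2%). When the fit was restricted to the 9 larval, pupal and male libraries, only 7 of the 18 passed the filter on low counts, and 3 of these were called higher in pupae (beside 18.8%). So few genes give no result about the class in this comparison.

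Occurrence outside eggs varied within the class, among abundant and scarce members alike. The 12 with a mean egg level of 10 CPM or more are all on the authors' egg list. Of the 6 scarcer ones, 3 had far higher levels in pupae than in eggs, with pupal means of 143, 100.3 and 40.8 CPM against egg means of 4.38, 1.61 and 1.34 CPM. The last 2 of these were also held by males, at 81.2 ± 15.1 and 161 ± 58.5 CPM (SD, n = 3). Of the larval libraries, larva replicate 1 held them at 26.7 and 109.7 CPM and larva replicates 2 and 3 at 0.263 CPM or less. Females lacked these 2 although males held them. The scarcest of the 18, the one at 161 CPM in males, was the member not called between eggs and females (adjusted p = 0.0824, edgeR).

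Many more female transcripts were absent from eggs. By the same rule with the sides exchanged, 169 genes were female transcripts lacking in eggs, 1.42% of the table, and 108 had no count in any egg library. All 169 passed the filter and were called higher in females, beside 22.4% of all genes tested, which again follows from the rule. Their mean female levels ran from 1.08 to 2786 CPM with a median of 12.6, and 25 reached 100 CPM. They took 1.84% ± 0.340 of female counts (SD, n = 3), with the highest share, 2.18%, in female replicate 2. The nearest genes inside and outside the rule had 0.0864 and 0.112 CPM as their highest egg value, and 1.03 and 0.981 CPM as their lowest female value. With no count allowed on the other side in place of 0.1 CPM, 108 genes remained, and without egg replicate 2 the rule chose 279.

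CAG9853989.1 had the highest female level among members with no egg count. It stood at 2144, 3809 and 1137 CPM in female replicates 1, 2 and 3 and at 0 in each egg library. Its mean of 2363 ± 1350 CPM (SD, n = 3) was at least 65130-fold higher than in eggs (adjusted p = 7.05e-05, edgeR). Males held it at 3745, 121 and 2533 CPM, larvae at 187, 114 and 38.5 CPM, and pupae at 32.6, 42.5 and 9.84 CPM. Male adult replicate 2 lay far below the other males and within reach of the larvae. Here too, the p-values of this and the next transcript come from the libraries that chose them.

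CAG9858909.1 stood at 1168, 275 and 2003 CPM in female replicates 1, 2 and 3 and at no count in eggs. Its mean of 1149 ± 864 CPM (SD, n = 3) was at least 31662-fold higher in females (adjusted p = 6.46e-05, edgeR). Males held more of it, with 2562, 6376 and 2824 CPM, and each male library lay above each female library. Female replicate 2 was the low one here and the high one for CAG9853989.1, and male adult replicate 2 was the high one here and the low one there. Pupae ranged from 164 to 245 CPM and larvae from 1.95 to 57.4 CPM. Neither transcript is on any of the authors' lists.

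Most of the 169 were found in adults of both sexes rather than in females alone. In male replicates 1, 2 and 3, 97.0%, 86.4% and 97.0% of them reached 1 CPM, beside 88.5%, 89.2% and 89.5% of all genes in the table. Presence in males was thus near that of all genes. The class medians were 28.2, 7.30 and 23.2 CPM in these male libraries and 11.5 to 12.9 CPM in females. The mean level was higher in males than in females for 154 of the 169. Larval libraries held 72.2% to 75.7% of the class at 1 CPM or more, beside 77.7% to 85.2% of all genes, at class medians of 12.4 to 15.2 CPM. Pupal libraries held 40.8% to 43.8%, beside 86.0% to 86.8% of all genes, at class medians of 0.643 to 0.851 CPM.

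By presence in every library of a group, 142 of the 169 were found in males, 115 in larvae and 58 in pupae. The share of all genes under this rule was not counted for these groups, so the numbers describe the class alone. The combination met most often was males and larvae without pupae, with 56 genes, followed by all 3 groups with 42 and males alone with 29. A further 16 were found in larvae alone, 15 in males and pupae, 1 in larvae and pupae, and 10 in no other group. Adults and larvae are the feeding forms of this beetle, and eggs and pupae are not. Whether feeding has any part in these combinations was not tested, and female, male and larval columns also share a prefix. The members' own functions are not given in the files.

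The low level in pupae was also tested in contrasts between other groups. Pupal columns carry another prefix than male and larval ones, and whatever it stands for cannot be told apart from these groups. Of the 169 genes, 141 were called higher in male adults than in pupae (83.4%), beside 18.4% of all genes tested (edgeR, fit of all 15 libraries). In the same fit 5 were called higher in pupae (2.96%, beside 17.2%). The median log2 difference, males minus pupae, was 4.75 over the 169 and 0.10 over all genes tested. The count was again 141 without male adult replicate 2 (beside 16.7% of all genes tested), and it was 144 without larva replicate 1 (beside 20.2%). With the eggs and females taken out of the fit, 166 of the 169 passed the filter, and 137 were called higher in males (beside 19.4%). In larvae against pupae, 111 of the 169 were called higher in larvae (65.7%), beside 20.3% of all genes tested, and 23 higher in pupae (13.6%, beside 20.3%). Without larva replicate 1 these numbers were 109 (64.5%, beside 19.1%) and 26 (15.4%, beside 27.8%). With eggs and females out of the fit they were 110 (beside 23.0%) and 22 (beside 20.3%).

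**Figure D4:**
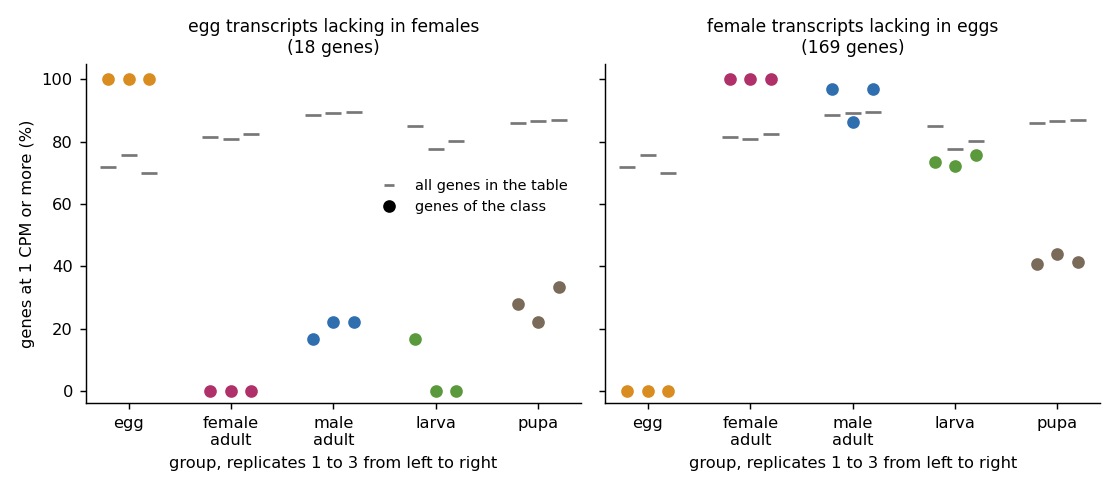
Share of genes at 1 CPM or more (percent, vertical axis) in each of the 15 libraries, for the 18 egg transcripts lacking in females (left) and the 169 female transcripts lacking in eggs (right), with points for the class and grey bars for all genes in the table. The egg class lies between 0% and 33.3% outside eggs, and the female class between 86.4% and 97.0% in males, above 70% in larvae and between 40.8% and 43.8% in pupae.

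A small remainder was seen in females and hardly elsewhere. Of the 169, 4 are on the authors' female list, 5 on the male, 12 on the larval and 1 on the pupal list, and 147 are on none. These lists hold 87, 175, 226 and 481 of the 11862 genes in the table. The member with rank 4 by female level was at 861, 936 and 739 CPM in female replicates 1, 2 and 3, at no count in eggs, and at most 2.13 CPM in any other library. The member with rank 6 was at 724, 501 and 146 CPM in females, at no count in eggs, and at most 0.190 CPM elsewhere. Both are on the authors' female list, and both were picked after their values were seen.

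Differences from pupae were also seen among genes called higher in females as a whole. Of these 2560, 1142 (44.6%) were called higher in males than in pupae and 235 (9.18%) higher in pupae, beside 18.4% and 17.2% of all genes tested. Of the 2025 genes called higher in eggs, 114 (5.63%) were called higher in males than in pupae and 720 (35.6%) higher in pupae. In larvae against pupae, larvae had the higher level for 1032 of the 2560 (40.3%) and pupae for 446 (17.4%), beside 20.3% and 20.3% of all genes tested. For the 2025 these calls numbered 218 (10.8%) and 648 (32.0%). Without larva replicate 1 the background became 19.1% and 27.8%, with 1006 (39.3%) and 444 (17.3%) of the 2560 and 196 (9.68%) and 642 (31.7%) of the 2025, so that the 2025 then stood less far above the pupal background. These calls share a fit with the calls that chose the genes. With eggs and females fitted on their 6 libraries alone and the other groups on theirs, 1134 of 2289 genes higher in females (49.5%) were called higher in males than in pupae, beside 19.4% of all genes tested. Of 1793 genes higher in eggs, 616 (34.4%) were called higher in pupae, beside 18.8%. In larvae against pupae, the separate fits called 1051 of the 2289 higher in larvae (45.9%, beside 23.0%). They called 480 of the 1793 higher in pupae (26.8%, beside 20.3%), a smaller share than the 32.0% of the shared fit. The genes higher in eggs took 22.6% to 26.1% of pupal counts and 13.3% to 17.0% of male and larval counts. The genes higher in females took at most 23.1% of the counts of a pupal library and 36.3% to 44.2% of male and larval counts.

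Some transcripts with very wide gaps in level were kept out of both classes by traces above 0.1 CPM on the other side. Among called genes with a mean of at least 1000 CPM on the higher side and a difference of at least 1000-fold, 4 were higher in eggs and 12 in females, a cut chosen after the values were seen. These include class members, CAG9857233.1 on the egg side and CAG9861122.1, CAG9853989.1 and CAG9858909.1 on the female side. The others, among them those described next, were outside the classes. The female-side transcript with the highest mean level stood at 18595, 18683 and 20660 CPM in female replicates 1, 2 and 3 and at 0.123, 0.201 and 0 CPM in eggs, 9 counts in all. Its fitted log2 difference, eggs minus females, was -17.37 ± 1.38 (SE; adjusted p = 2.40e-06, edgeR). Males held 3808 to 6421 CPM of it, larvae 293 to 2868 CPM and pupae 25.1 to 72.9 CPM.

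The next by mean level on the female side was at 25153, 16257 and 6649 CPM in female replicates 1, 2 and 3 and at 0.288, 0.134 and 0.0703 CPM in eggs, a fitted log2 difference of -16.56 ± 0.96 (SE; adjusted p = 4.27e-07, edgeR). Male libraries held 4.50 to 9.91 CPM of this transcript, and larval and pupal libraries at most 1.26 CPM. Both transcripts are on the authors' female list. The egg-side transcript with the highest mean level, though not the widest gap, was at 9905, 1164 and 4549 CPM in egg replicates 1, 2 and 3 and at 0.385, 0.147 and 1.32 CPM in females (log2 difference 13.04 ± 1.33, SE; adjusted p = 1.18e-05, edgeR). All 4 on the egg side are on the authors' egg list. The steadiest of them was at 1767, 1548 and 1913 CPM in egg replicates 1, 2 and 3 and had 6 counts in females, all in replicate 1.

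Many transcripts were abundant in both. Levels of different genes were compared per length, through the authors' deposited mean TPM (a share of transcripts after scaling by length), which gives no spread. At a mean of at least 100 TPM in eggs and in females, 908 genes were abundant in both, which is 57.8% of the 1570 genes at that level in eggs and 50.6% of the 1795 in females. They held 62.1% of egg TPM and 44.6% of female TPM. Their median was 236 TPM in eggs and 200.4 TPM in females. Of the 100 genes with the highest TPM in eggs and the 100 with the highest in females, 64 were shared, which is 64.0% of each list, and of the top 1000, 482 were shared.

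CAG9855532.1 had the highest level of the abundant transcripts that were not called. The authors' mean was 12801 TPM in eggs and 12176 TPM in females. Its CPM was 16877, 10039 and 11932 in egg replicates 1, 2 and 3 and 9388, 9095 and 10350 in female replicates 1, 2 and 3, so that egg replicate 2 fell within the female range. The log2 difference, eggs minus females, was 0.43 ± 0.24 (SE; adjusted p = 0.156, edgeR). The other groups held it at authors' means of 7201 to 8331 TPM.

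CAG9854969.1 followed, with authors' means of 4428 TPM in eggs and 3933 TPM in females. Its CPM was 3674, 2034 and 3112 in egg replicates 1, 2 and 3 and 2043, 1987 and 2031 in female replicates 1, 2 and 3. The log2 difference was 0.54 ± 0.26 (SE; adjusted p = 0.107, edgeR), and again egg replicate 2 lay among the females. A missed threshold does not show that levels were equal in either gene. In larvae, pupae and males the authors' means were 4079, 2404 and 2881 TPM.

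Within the 908 genes the balance leaned towards eggs. Of them, 302 were called higher in eggs (33.3%, beside 17.7% of all genes tested) and 55 higher in females (6.06%, beside 22.4%), while 551 were not called. The median log2 difference was 0.61 over the 908 and 0.03 over all genes tested. With library size alone it was 0.44, beside -0.08 over all genes tested. That setting called 236 of the 908 higher in eggs and 63 higher in females, beside 1656 and 2756 among all genes tested. Differences of 4-fold or more were found for 57 of those called higher in eggs and 5 of those called higher in females, and the widest on each side were 4.25 and -3.63 on the log2 scale. By the authors' TPM, which chose the class, 563 of the 908 had the higher mean in eggs. The requirement of a high level on both sides keeps out genes with the widest differences, which were more often towards females. The shares called within the 908 thus follow in part from the rule and are a description here.

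These 908 transcripts took 49.0%, 43.6% and 49.1% of the counts of egg replicates 1, 2 and 3 and 33.0%, 34.3% and 31.4% of those of female replicates 1, 2 and 3. In other libraries they took 30.1% to 33.9% in larvae, at most 28.1% in males and 21.1% to 24.5% in pupae. In larvae, pupae and males, 513, 542 and 543 of the 908 were also at 100 TPM or more, and 373 were so in all 5 groups. In none of larvae, pupae and males did 231 of the 908 reach 100 TPM. Under 1 TPM in males were 7 of the 908, and 5 of these were under 1 TPM in larvae and pupae too. On any of the authors' lists are 17 of the 908, with 15 of them on the egg list, which holds 160 of the 11862 genes in the table. Among all genes present in both eggs and females, whatever their level, 13 stayed under 0.1 CPM in every male library and 6 in all larval, pupal and male libraries.

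**Figure D5:**
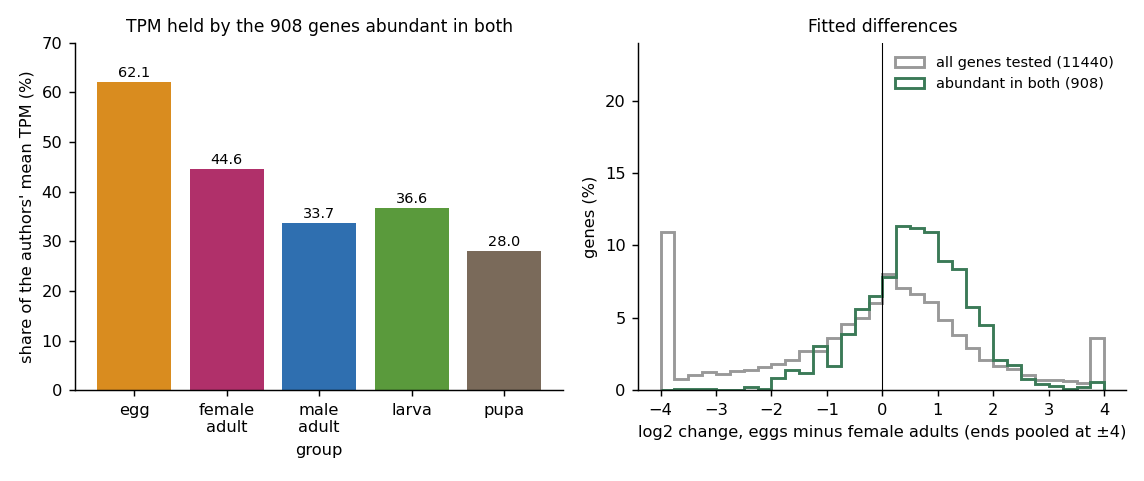
Left, the share of the authors' mean TPM (percent) held by the 908 genes with at least 100 TPM in eggs and in female adults, by group, from 62.1% in eggs to 28.0% in pupae. Right, fitted log2 differences (eggs minus female adults) of these genes in green and of all 11440 genes tested in grey, in percent of genes, with values past 4 pooled in the end bins. The green distribution has its median at 0.61, with 682 genes above 0 and 226 below.

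Transcripts that one side lacked were shorter than most. Relative length was taken from the ratio of counts to the authors' TPM, with the median gene set to 1, and rebuilt mean TPM differed from the deposited values by a median of 0.0480% and by 4.99% at the 99th percentile of genes at 1 TPM or more. The median relative length was 0.427 for the 18 egg transcripts lacking in females, with quartiles of 0.342 and 0.950, and 0.593 for the 169 female transcripts lacking in eggs, with quartiles of 0.363 and 0.953. It was 0.841 for the 908 abundant in both, against 1.16 for all genes present in eggs and 1.12 for all present in females. At a given number of molecules a shorter transcript yields fewer reads, and the part of length in who was counted as lacking was not tested.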

How the data were processed

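The authors deposited raw read counts per gene for 15 libraries, made with fastp, HISAT2 and featureCounts as named in the submitters' processing notes. The notes list no versions, and neither the strand setting nor the genome build is stated in them. The authors also deposited mean TPM per group and lists of gene identifiers, whose rule is not given. Columns were matched to samples by library name.

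Counts were filtered with edgeR's filterByExpr, which kept 11440 of 11862 genes, scaled by TMM and tested with edgeR's quasi-likelihood test (edgeR 4.0.16, R 4.3.3, robust fit, 5 groups, 15 libraries, no covariate). Calls needed an adjusted p under 0.05 (Benjamini-Hochberg) and a 2-fold difference. Classes, settings and named transcripts were chosen with earlier results of these data known. The named transcripts are the 2 with the highest level per side among genes with no count on the other side, and the 2 uncalled ones with the highest TPM in both. No pair of egg or female libraries looked like 1 library deposited again (chi-square over its degrees of freedom 81.6 or more). The values without male adult replicate 2, the fits that set eggs and females apart from the other groups, the alternatives for genes present or abundant in both and those for the 169 in males against pupae were chosen after seeing the data. On simulated data the test found most 4-fold and 8-fold changes but few 2-fold ones, so an uncalled gene is not shown to be unchanged.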

Additional observations from a re-analysis of the deposited data

How the results depend on the processing

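Of 99 alternative values for the main counts, 90 stayed within 1.5 times the reported one, and all 78 for the 6 named transcripts kept their direction and their side of the threshold. The classes depend on their limits. The 18 egg transcripts lacking in females became 64 with lacking set at under 0.5 CPM and 10 with presence set at 10 CPM, and 21 to 30 when a library was left out, with 30 without female adult replicate 3. The 169 female transcripts lacking in eggs became 108 with no count allowed in eggs, 503 at under 0.5 CPM and 80 at 10 CPM, and 174 to 279 when a library was left out, with 279 without egg replicate 2. Leaving out a library relaxes these rules by construction. The 908 transcripts abundant in both became 2522 at 50 TPM and 341 at 200 TPM.

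Calls ranged from 1851 to 2354 higher in eggs and from 2296 to 2720 higher in females when an egg or female library was left out, and were 2070 and 2785 without larva replicate 1. With the egg and female libraries alone they were 1820 and 2312. DESeq2's Wald test called 2049 and 2893. Deviations of same-numbered egg and female libraries had r of 0.03, -0.29 and -0.22 across genes, and those of differently numbered ones -0.16 to 0.31. Deviations from a mean of 3 libraries depend on each other, so these values cannot decide whether the numbers pair the libraries. The labels do not say so. With the replicate number as a block, 1918 genes were called higher in eggs and 2522 higher in females, with 131 of the 169 called higher in males than in pupae. At these depths 0.1 CPM is 1.94 to 2.67 counts. A level under 0.1 CPM is thus not told from absence within 1 library, and the floor of 3 counts over the 3 libraries of a group reaches lower.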
